A study of Mus musculus with 6 samples.

Results

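Messages of 10 heat shock protein genes were followed in mouse hearts: the HSP70 genes Hspa1a, Hspa1b and Hspa8, the HSP110 genes Hspa4 and Hsph1, the HSP90 genes Hsp90aa1 and Hsp90ab1, and the mitochondrial genes Hspa9, Hspd1 and Hspe1. They were chosen by gene symbol out of 25361 genes in the count table. Of these 10 genes, 8 had enough counts to be tested beside 8531 tested genes in all, and Hspa1a and Hspa1b did not. The hearts came from WT C57BL/6N male mice, 12-week-old animals in the study design, in 2 groups of 3 collected after 6 weeks: an untreated control group and a group given ISO+L-NAME, a combination that the study title names as a model of HFpEF, a form of heart failure. L-NAME inhibits nitric oxide synthase. No vehicle is named for the controls, and the labels used here name no dose or route. Libraries were primed at the poly(A) tail, so a longer message does not give more counts. Levels of different genes are set side by side on that basis. Other differences between genes in how reads were captured or counted were not examined.

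HSP70 proteins bind unfolded stretches of other proteins and release them in a cycle driven by ATP, which J-domain proteins start and HSP110 proteins help to reset by exchanging the nucleotide. HSP90 proteins take up kinases, steroid receptors and, in muscle, myosin, with the help of cochaperones that deliver the client or time the cycle. In the mitochondrial matrix, mortalin (Hspa9) pulls imported proteins in, and HSP60 (Hspd1) with its lid HSP10 (Hspe1) forms a chamber in which they fold. Heat shock factor HSF1 binds heat shock elements, runs of inverted nGAAn units, and drives the inducible genes of the family under stress.

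The upstream sequence of 2 of these genes shows what such elements look like. RefSeq promoter windows of build GRCm38.p6, each from 250 bases before to 50 bases after a start site, were found for 6 of the 10 genes. Windows of Hspa8, Hspa9, Hsp90aa1 and Hsp90ab1 were not analysed here. The stretches below are the 200 bases before the start site of Hspe1 (chr1:55087948-55088147, plus strand) and of Hspa1a (chr17:34972157-34972356, minus strand), written 5′ to 3′. Hspe1 is shown because its upstream stretch also lies upstream of a start site of its divergent neighbour Hspd1, that of the nearer Hspd1 window. It lies downstream of the start site of the other Hspd1 window. Hspa1a is shown because it is the stress-inducible HSP70 gene. Capitals mark letters that match an inverted pair of units, GAANNTTC or TTCNNGAA, with overlapping matches joined.
Hspe1: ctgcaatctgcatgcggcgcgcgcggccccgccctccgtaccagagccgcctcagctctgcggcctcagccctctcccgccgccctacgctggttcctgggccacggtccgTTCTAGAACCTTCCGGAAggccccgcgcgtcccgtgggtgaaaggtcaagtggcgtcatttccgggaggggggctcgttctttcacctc
Hspa1a: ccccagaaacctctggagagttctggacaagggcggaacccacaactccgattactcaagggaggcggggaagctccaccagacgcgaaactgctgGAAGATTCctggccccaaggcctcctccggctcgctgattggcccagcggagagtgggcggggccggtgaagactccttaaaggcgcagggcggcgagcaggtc
The Hspe1 match begins 89 bases before the start site and joins 3 overlapping matches into a run of 18 letters. It is held on the other strand by the nearer of the 2 Hspd1 windows, which shares 285 bases with the Hspe1 window, while the second Hspd1 window has no match. The Hspa1a match begins 104 bases before the start site. Over the same 200 bases Hspa1b differs from Hspa1a at 1 base, and the whole windows of the pair are 98.7% identical. Both motifs read the same on either strand, so each window was searched for both at once. In all, 6 of the 8 windows of these genes had a match, against 15.1% of 32851 windows in the table; they belong to Hspa1a, Hspa1b, Hsph1, Hspd1 and Hspe1, and Hspa4 had none. A further unit, so 3 in a row, was found in 4 of the 8 windows, those of Hsph1, Hspd1 and Hspe1, against 0.603% of windows. The windows of Hspd1 and Hspe1, of Hspa1a and Hspa1b, and the pair of Hsph1 windows share most of their letters and are not independent. A match of letters is a description of the window and not a binding site.

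Treated hearts held less message for the HSP60 subunit Hspd1 and for Hsp90ab1, the constitutive cytosolic HSP90, and the other 6 tested genes did not pass the test. Hspd1 fell by 0.40 on the log2 scale (SE 0.11) and Hsp90ab1 fell by 0.38 (SE 0.10), so that treated levels were 0.759 and 0.770 of the control levels. Among the 8 tested genes 0 were called higher and 2 lower by edgeR's quasi-likelihood test, against 3.41% and 2.68% of all tested genes and 6.1% in either direction. The same 2 genes were those with an unadjusted p under 0.05, against 18.1% of all genes, and those whose groups did not overlap, against 22.7%; by these last 2 measures the share of 2 in 8 is close to that of all genes. DESeq2 and limma-voom also called 0 higher and 2 lower, against backgrounds of 2.76% and 2.18% for DESeq2 and 3.15% and 2.67% for limma-voom. The median log2 change of the 8 was -0.10, beside -0.01 for all tested genes, with 2 estimates above 0 and 6 below. All 8 of the 95% intervals lay within a 2-fold change either way, and 5 lay within 1.5-fold.

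**Figure D1:**
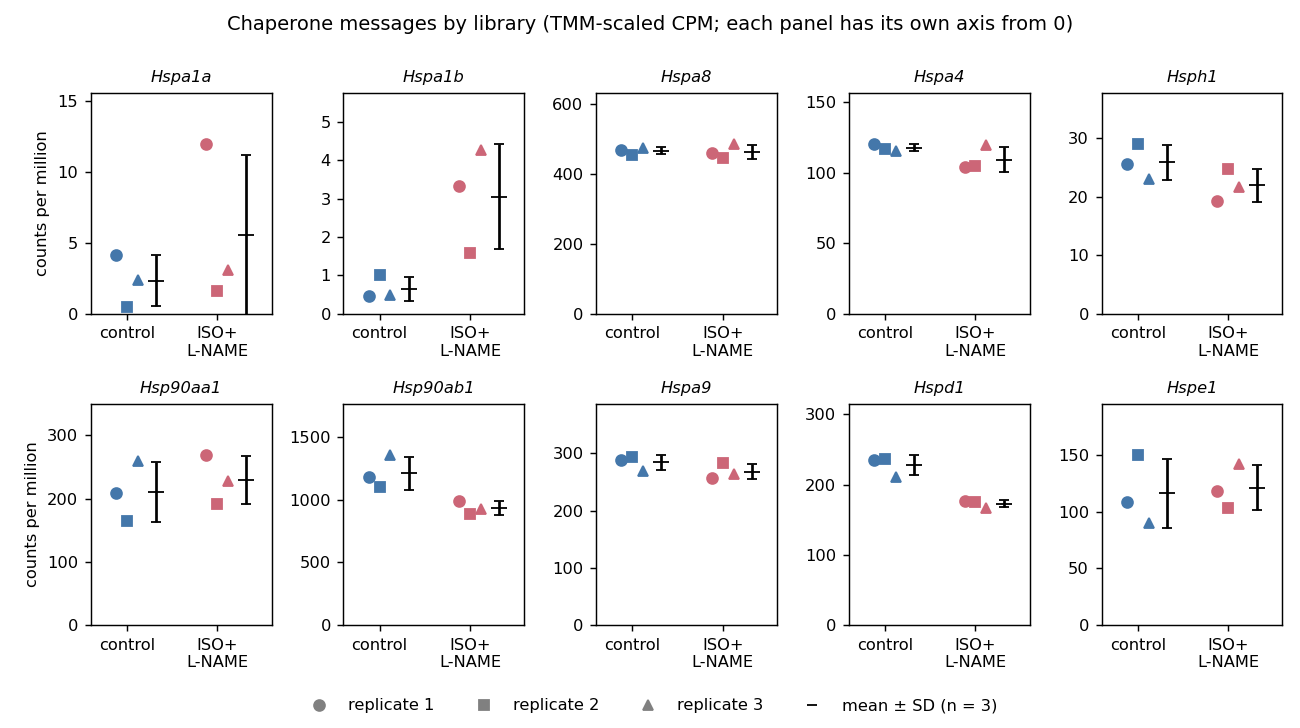
Level of each of the 10 messages in every library, in TMM-scaled CPM from 0, with the mean and SD of each group of 3 hearts; each panel has its own axis, and where an SD exceeds its mean the lower bar stops at 0. The groups are apart for Hsp90ab1 and Hspd1, which lie lower in ISO+L-NAME, and for the low-count Hspa1b, and they overlap in the other 7 panels.

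Levels are given as CPM, counts scaled to a common library size after TMM scaling, a step that sets the bulk of genes equal between libraries. In controls Hsp90ab1 was by far the most abundant of the 10 at 1213 ± 131 CPM (SD, n = 3), ahead of Hspa8 at 466 ± 10.5 CPM (SD, n = 3) and Hspa9 at 284 ± 12.6 CPM (SD, n = 3). Hspd1 and Hsp90aa1 came next and did not differ beyond their spread, with 228 ± 14.2 and 211 ± 47.4 CPM (SD, n = 3). Hspa4 and Hspe1 were likewise alike, with 118 ± 2.52 and 117 ± 30.5 CPM (SD, n = 3). Hsph1 stood at 25.9 ± 2.97 CPM (SD, n = 3), and Hspa1a and Hspa1b were near the floor of the measurement, at 2.34 ± 1.80 and 0.646 ± 0.307 CPM (SD, n = 3). In treated hearts Hsp90aa1 stood above Hspd1, with 230 ± 38.3 CPM against 173 ± 4.97 CPM (SD, n = 3), and the control values of these 2 genes overlapped. The 10 messages together made up 0.239 ± 0.0230% of all counts in controls against 0.257 ± 0.0179% in treated hearts (SD, n = 3). After TMM scaling the direction turned, with a sum of 2665 ± 130 CPM in controls against 2329 ± 101 CPM in treated hearts (SD, n = 3). Neither total was tested.

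The constitutive cytosolic HSP70 gene Hspa8, which folds new proteins and strips clathrin from vesicles, did not pass the test. It lies on chromosome 9 (GRCm39, 40712280 to 40721383, plus strand). Its level was 468, 455 and 476 CPM in the 3 controls and 459, 445 and 486 CPM in the 3 treated hearts. The treated values spanned the whole control range. The log2 change was -0.01 ± 0.10 (SE), with a 95% interval from -0.21 to 0.19 and an edgeR adjusted p of 0.980.

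The stress-inducible pair Hspa1a and Hspa1b encodes HSP70 proteins that differ by very few residues. Their genes lie on the minus strand of chromosome 17 (GRCm39), Hspa1a from 35188166 to 35191132 and Hspa1b from 35175412 to 35178214. Both failed the count filter. Hspa1a had 9, 1 and 5 control counts and 36, 4 and 8 counts after ISO+L-NAME, and Hspa1b had 1, 2 and 1 control counts and 10, 4 and 11 counts after ISO+L-NAME. The Hspa1b values did not overlap between groups, whereas Hspa1a was high only in the treated library numbered 1 and otherwise overlapped with controls.

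Pooled over libraries and corrected for library size, Hspa1b gave 4 counts in controls and 25 in treated hearts, a ratio of 4.82 with an exact 95% interval for counting error from 1.66 to 19.1. Without ISO+L-NAME 1 this ratio was 4.59 (1.46 to 19.0). For Hspa1a 15 control and 48 treated counts gave a ratio of 2.47 (1.36 to 4.74), which was 0.980 (0.419 to 2.24) without ISO+L-NAME 1. The sum of the pair gave a ratio of 2.96 (1.77 to 5.20), or 1.74 (0.932 to 3.31) without that library, and an exact two-sided permutation p of 0.2 over the libraries, where 0.1 is the smallest that 3 against 3 can give. These intervals cover counting error only and not the spread between mice.

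With no count filter, edgeR gave log2 changes of 2.18 ± 0.72 for Hspa1b (SE, edgeR adjusted p = 0.0495), 1.26 ± 0.44 for Hspa1a (SE, edgeR adjusted p = 0.0725) and 1.53 ± 0.38 for their sum (SE, edgeR adjusted p = 0.00184), in a fit that called 2.96% of genes higher and 2.17% lower. That fit gave every gene the spread of the common trend and none of its own, so these p-values do not measure the spread of the pair between libraries: Jun, with its uneven treated counts, had an edgeR adjusted p of 3.53e-15 there and of 0.0240 with the filter. Without ISO+L-NAME 1, where the fit did estimate a spread per gene, the values were 2.11 for Hspa1b (edgeR adjusted p = 0.247), -0.02 ± 0.66 for Hspa1a (SE) and 0.79 ± 0.50 for the sum (SE, edgeR adjusted p = 0.593). DESeq2 gave no adjusted p for either gene. In the annotated transcripts of GENCODE M21 the pair is 85.5% identical over its whole length but 52.8% identical over the last 300 bases, where 3′-end reads fall. Aligned in the same way, the last 300 bases of Hspa1a and Hspa8 are 51.0% identical, and those of Hsp90aa1 and Hsp90ab1 are 47.3% identical. How reads that match both Hspa1a and Hspa1b were counted is not stated in the labels used here.

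**Figure D2:**
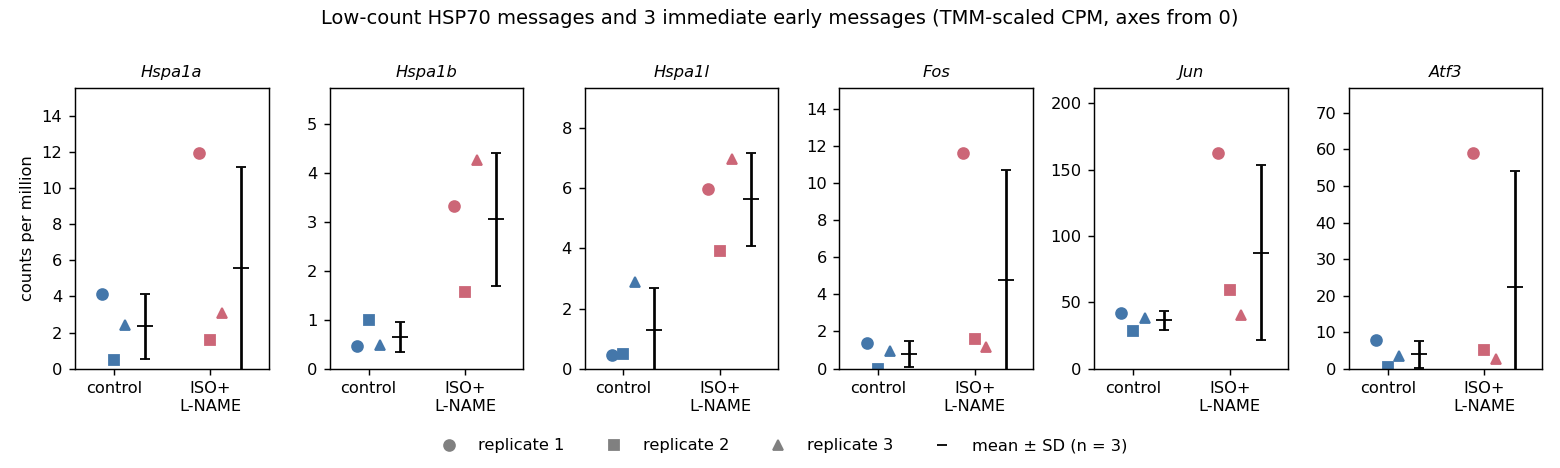
Level of Hspa1a, Hspa1b, their neighbour Hspa1l and the immediate early genes Fos, Jun and Atf3 in every library, in TMM-scaled CPM from 0, with the mean and SD of each group of 3 hearts; where an SD exceeds its mean the lower bar stops at 0. Hspa1a, Fos, Jun and Atf3 have their highest value in the same treated library, numbered 1, whereas Hspa1b and Hspa1l lie above the controls in all 3 treated hearts.

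The library in which Hspa1a was high also held the most message of several immediate early genes, which turn on within minutes of a stimulus. Jun had 92, 57 and 80 control counts and 490, 150 and 104 counts after ISO+L-NAME, so all 3 treated counts lay above all 3 control counts, although its CPM values overlapped. Atf3, a stress-induced transcription factor, had 17, 1 and 7 control counts and 178, 13 and 7 counts after ISO+L-NAME. Fos had 3, 0 and 2 control counts and 35, 4 and 3 counts after ISO+L-NAME. In each case ISO+L-NAME 1 stood apart from the other 5 libraries. Not all genes of the list did this. Nr4a1 was at 48.5 CPM in ISO+L-NAME 1 and 47.4 CPM in control 1, and Fosl2 at 45.5 and 47.4 CPM. Klf4 was at 69.8 CPM in ISO+L-NAME 1 and 103 CPM in control 3. Of 16 tested immediate early genes 2 were called higher, Ier3 at 1.34 ± 0.19 (SE, edgeR adjusted p = 0.000105) and Jun at 1.28 ± 0.34 (SE, edgeR adjusted p = 0.0240), and 0 lower. Over all tested genes 3.41% were called higher and 2.68% lower. An unadjusted p under 0.05 was found for 8 of the 16, 7 higher and 1 lower, against 18.1% of all tested genes. The median of the list was 0.33, and its summed level ran from 449 to 607 CPM in controls and from 452 to 1009.9 CPM in treated hearts. Without ISO+L-NAME 1, Jun gave 0.45 (edgeR adjusted p = 0.236). Its call was also lost without control 1, 2 or 3 (edgeR adjusted p = 0.0663, 0.0925 and 0.0543, with changes of 1.39, 1.13 and 1.32) and in the robust fit, DESeq2 and limma-voom (adjusted p = 0.456, 0.362 and 0.1002), and in each of these settings 1 immediate early gene was called higher. The part of this library's state in the Hspa1a and Hspa1b values was not tested.

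Hspa1l, an HSP70 gene known for its expression in the testis, lies 547 bases from Hspa1a on the opposite strand. It had 1, 1 and 6 control counts and 18, 10 and 18 counts after ISO+L-NAME, with every treated count above every control count. Its log2 change was 2.10 ± 0.54 (SE, edgeR adjusted p = 0.0202), but it passed the count filter only through the treated hearts, where it is high, so this call was favoured by the filter. Its pooled count ratio was 4.43 (exact 95% interval 2.07 to 10.9, counting error only). Its call was lost without control 1 or 2 and without treated heart 1 or 3 (edgeR adjusted p = 0.140, 0.106, 0.0645 and 0.0946), and without control 3 its change was 3.43. It was not tested with a mean of at least 5 CPM, with mitochondrial genes left out or with the deposited library sizes, and DESeq2 gave it no adjusted p. Whether strand was used in counting is not stated in the labels used here, and the annotated genes do not overlap.

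The HSP110 genes Hspa4 and Hsph1, nucleotide exchange factors for HSP70, did not pass the test. Hspa4 (chromosome 11, GRCm39, 53150641 to 53191284, minus strand) stood at 120, 117 and 116 CPM in controls and at 104, 105 and 120 CPM in treated hearts. Of the treated hearts 1 lay inside the control range and the other 2 below it. Its log2 change was -0.11 ± 0.11 (SE), with a 95% interval from -0.34 to 0.13 (edgeR adjusted p = 0.700). Hsph1 (chromosome 5, GRCm39, 149537752 to 149559841, minus strand), also called HSP105 and itself heat inducible, stood at 25.5, 29.0 and 23.1 CPM in controls and at 19.3, 24.8 and 21.7 CPM in treated hearts. The groups overlapped, and the log2 change was -0.24 ± 0.18 (SE) with the widest interval of the 8 tested genes, from -0.63 to 0.14 (edgeR adjusted p = 0.560). Summed, the HSP110 genes gave 144 ± 4.29 CPM in controls against 131 ± 9.20 CPM in treated hearts (SD, n = 3).

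Of the cytosolic HSP90 genes Hsp90ab1 fell and Hsp90aa1 did not pass the test. Hsp90ab1 (chromosome 17, GRCm39, 45878701 to 45884197, minus strand), which encodes HSP90β and serves most clients in unstressed cells, stood at 1179.8, 1101 and 1357 CPM in controls and at 993, 885 and 923 CPM in treated hearts. Every treated heart lay below every control. It fell by 0.38 on the log2 scale (SE 0.10, 95% interval -0.59 to -0.16, edgeR adjusted p = 0.0289). Hsp90aa1 (chromosome 12, GRCm39, 110657039 to 110669162, minus strand), the inducible HSP90α gene, stood at 209, 164 and 259 CPM in controls and at 269, 192 and 228 CPM in treated hearts. Its groups overlapped over most of their range, and its log2 change was 0.13 ± 0.14 (SE) with a 95% interval from -0.18 to 0.43 (edgeR adjusted p = 0.726). Its estimate was -0.03 without control 2 and -0.0042 without ISO+L-NAME 1. The Hsp90ab1 call was lost without control 1 or 3 and without treated heart 2 or 3 (edgeR adjusted p = 0.102, 0.0890, 0.152 and 0.0906), while the change stayed between -0.45 and -0.29.

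The share of HSP90 counts that came from Hsp90aa1 does not depend on how libraries are scaled. It was 15.1%, 13.0% and 16.0% in controls, and 21.3%, 17.8% and 19.8% after ISO+L-NAME. Every treated share lay above every control share. The means were 14.7 ± 1.56% and 19.7 ± 1.73% (SD, n = 3), a difference of 4.97 percentage points that stayed between 4.11 and 5.88 when any library was left out. The exact two-sided permutation p was 0.1, the smallest the design allows, and 0.333 after Benjamini-Hochberg adjustment over the 5 shares examined. The lowest treated share had a 95% Wilson interval from 16.5% to 19.3%, and the highest control share had one from 14.8% to 17.3%.

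**Figure D3:**
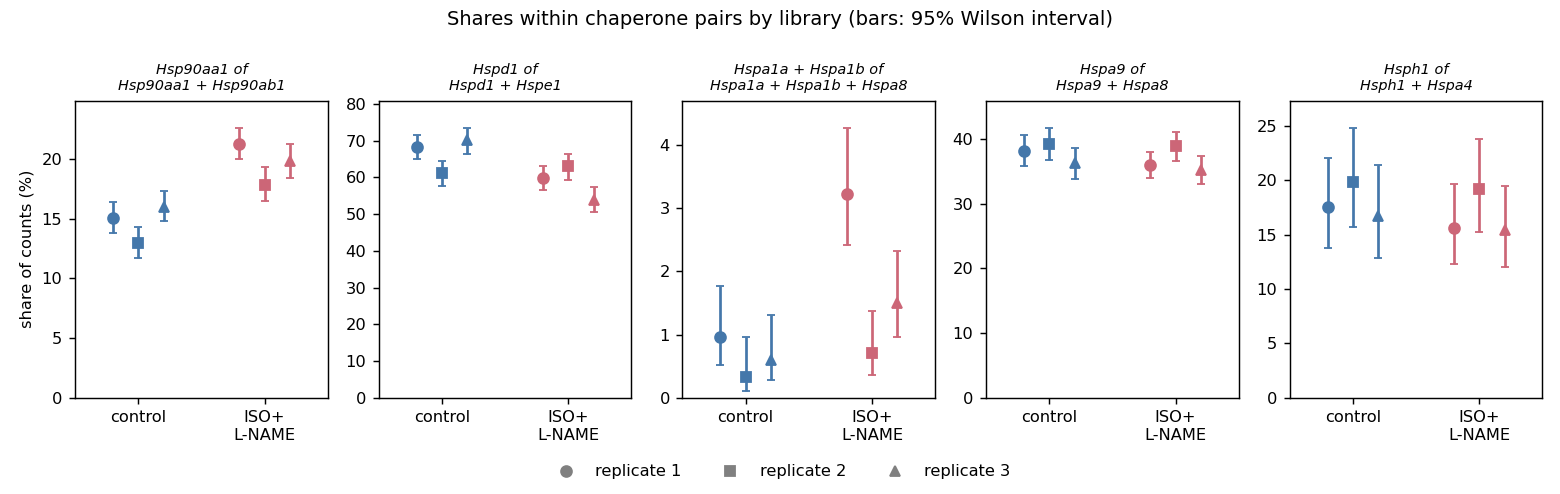
Share of counts of the named gene within each of 5 pairs or groups of chaperone genes, in percent from 0, for every library; error bars are 95% Wilson intervals, which cover counting error only. The Hsp90aa1 shares of treated hearts (17.8% to 21.3%) lie above those of controls (13.0% to 16.0%), and the other 4 shares overlap between groups.

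In the mitochondrial set Hspd1 fell and its partner Hspe1 did not pass the test. Hspd1 (chromosome 1, GRCm39, 55116994 to 55127402, minus strand), the barrel subunit of the folding chamber, stood at 235, 236 and 211 CPM in controls and at 176, 175 and 167 CPM in treated hearts. The groups were well apart and the treated hearts lay close together. It fell by 0.40 on the log2 scale (SE 0.11, 95% interval -0.62 to -0.18, edgeR adjusted p = 0.0247). Hspe1 (chromosome 1, GRCm39, 55127291 to 55130466, plus strand), the lid, stood at 109, 150 and 90.5 CPM in controls and at 118, 103 and 142 CPM in treated hearts. The groups overlapped almost wholly, and the log2 change was 0.06 ± 0.16 (SE, 95% interval -0.27 to 0.38, edgeR adjusted p = 0.906). Without control 3 or ISO+L-NAME 3 the Hspe1 estimate was -0.10 or -0.07.

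Only without control 3 did Hspd1 still pass when a library was left out. Its edgeR adjusted p was 0.138, 0.0680, 0.0629, 0.0878 and 0.0854 without control 1, control 2 and treated hearts 1, 2 and 3 in turn, with changes between -0.46 and -0.38 over the 6 fits. Hspd1 and Hspe1 are annotated head to head and share 112 bases on opposite strands at their 5′ ends. No other gene of the 10 overlaps an annotated gene. Hspd1 supplied 68.3%, 61.1% and 70.0% of the counts of the pair in controls and 59.8%, 62.9% and 54.0% in treated hearts. These shares overlapped, at 66.5 ± 4.72% and 58.9 ± 4.56% (SD, n = 3, exact two-sided permutation p = 0.2, adjusted 0.333). Across the 6 libraries the log2 levels of Hspd1 and Hspe1 had a Pearson r of -0.03, a description over libraries that share their groups and depth.

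Hspa9 (chromosome 18, GRCm39, 35070467 to 35087410, minus strand), the matrix HSP70 that drives protein import, stood at 289, 294 and 270 CPM in controls and at 257, 283 and 264 CPM in treated hearts. Of the treated hearts 1 lay within the control range and 2 below it. Its log2 change was -0.09 ± 0.10 (SE, 95% interval -0.30 to 0.13, edgeR adjusted p = 0.738). Hspa9 made up 37.9 ± 1.53% of its counts summed with Hspa8 in controls against 36.7 ± 1.93% in treated hearts (SD, n = 3, exact two-sided permutation p = 0.4, adjusted 0.5). For Hsph1 within the HSP110 pair the shares were 18.0 ± 1.66% and 16.7 ± 2.11% (exact two-sided permutation p = 0.5, adjusted 0.5), and for Hspa1a and Hspa1b within cytosolic HSP70 they were 0.633 ± 0.319% and 1.81 ± 1.29% (exact two-sided permutation p = 0.2, adjusted 0.333).

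Summed by compartment, cytosolic HSP70 messages stood at 469 ± 11.5 CPM in controls against 472 ± 22.4 CPM in treated hearts (SD, n = 3). Cytosolic HSP90 messages stood at 1423 ± 178 and 1163 ± 92.9 CPM, and mitochondrial ones at 628 ± 54.3 and 562 ± 11.04 CPM (SD, n = 3). No test was made on these sums.

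**Figure D4:**
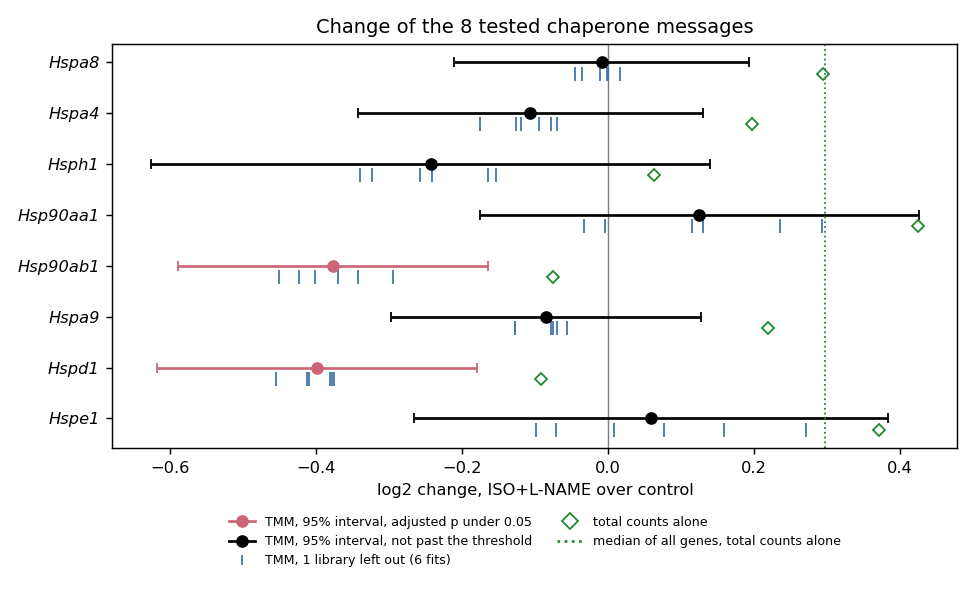
Log2 change of the 8 tested messages in ISO+L-NAME over control hearts, with 95% intervals. Only the intervals of Hspd1 (-0.62 to -0.18) and Hsp90ab1 (-0.59 to -0.16) leave out 0.

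Scaling mattered for the sign of these small changes. Scaled by total counts alone, the median change of all genes moved up by 0.30, 16.5% of genes were called higher and 0.844% lower, and the estimates of Hspa4, Hspa8, Hspa9 and Hsph1 turned positive. In that fit Hspa8 passed at 0.29 (edgeR adjusted p = 0.0451), and Hspd1 and Hsp90ab1 no longer passed, at -0.09 and -0.08 (edgeR adjusted p = 0.560 and 0.649). Set against the median of all genes, Hspd1 was at -0.39 and Hsp90ab1 at -0.37 under both scalings. A change of scaling moves all genes by nearly the same amount, so this agreement was fixed in advance and lends the calls no support. Mitochondrial genome messages took 53.6% to 56.7% of the counts in controls and 45.5% to 47.8% in treated hearts. Leaving them out of the fit kept both calls.

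The rest of the HSP70, HSP110 and HSP90 families held 10 tested genes, with a median of -0.34. Of these, 1 was called higher (Hspa1l, with the limit given above) and 2 lower, against 3.41% and 2.68% of all tested genes. An unadjusted p under 0.05 was found for 4 of the 10, 1 higher and 3 lower, against 18.1% of all tested genes. Hspa5, the BiP chaperone of the endoplasmic reticulum, fell by 0.37 on the log2 scale (SE 0.10, edgeR adjusted p = 0.0291), from 544, 540 and 579 CPM in controls to 463, 417 and 410 CPM in treated hearts, with no overlap. Hspa12a, a distant HSP70 relative, fell by 1.15 (SE 0.30, edgeR adjusted p = 0.0228), with 40, 23 and 28 control counts and 29, 11 and 13 counts after ISO+L-NAME. The Hspa5 call was lost without control 1 or 3 and without treated heart 2 or 3, and the Hspa12a call without control 1 and without treated heart 2 or 3, with edgeR adjusted p between 0.0597 and 0.167. With total counts alone neither passed (edgeR adjusted p = 0.703 and 0.0685), and DESeq2 did not call Hspa12a (adjusted p = 0.0904). Trap1, the mitochondrial HSP90, was at -0.38 ± 0.18 (SE, edgeR adjusted p = 0.278).

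Of 29 tested cochaperones of HSP90 and HSP70, 1 was called higher and 1 lower, with a median of -0.09, shares close to the 3.41% and 2.68% of all tested genes. An unadjusted p under 0.05 was found for 10 of the 29, 3 higher and 7 lower, a larger share than the 18.1% of all tested genes. Fkbp4, an immunophilin that works with HSP90 on steroid receptors, fell by 0.73 (SE 0.11, edgeR adjusted p = 0.000175), with 548, 494 and 498 control counts and 480, 391 and 340 counts after ISO+L-NAME. All 3 treated counts lay below all 3 control counts although the treated libraries were as deep, and the call was kept in every fit made. Its relative Fkbp5, a glucocorticoid-induced gene, rose by 1.04 (SE 0.30, edgeR adjusted p = 0.0419), with 20, 32 and 44 control counts and 57, 73 and 124 counts after ISO+L-NAME. The Fkbp5 call was lost without control 1 or 2, without treated heart 2 and without treated heart 3, where the change was 0.62 (edgeR adjusted p = 0.277), and in edgeR's robust fit, DESeq2 and limma-voom (adjusted p = 0.287, 0.0524 and 0.0770).

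The cochaperones that hand clients to HSP90 did not pass: Stip1, which links HSP70 to HSP90, was at -0.40 ± 0.15 (SE, edgeR adjusted p = 0.150) and the kinase loader Cdc37 at -0.34 ± 0.13 (SE, edgeR adjusted p = 0.133). Unc45b, the myosin chaperone of striated muscle, was at -0.34 ± 0.14 (SE, edgeR adjusted p = 0.200). Bag3, the HSP70 partner in muscle protein turnover, was at -0.04 ± 0.13 (SE, edgeR adjusted p = 0.936).

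Among the heat shock factors and their partners, 3 were tested and 0 were called in either direction by edgeR, DESeq2 or limma-voom, with 0 at an unadjusted p under 0.05. The main stress factor Hsf1 had 24, 25 and 25 control counts and 30, 28 and 18 counts after ISO+L-NAME, and its log2 change was -0.34 ± 0.25 (SE, edgeR adjusted p = 0.558). Hsf2 was at -0.13 ± 0.21 (SE, edgeR adjusted p = 0.824), and Hsf5 had no count in any library. The median of the 3 was -0.16.

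Of 16 tested mitochondrial chaperone partners and proteases 0 were called by edgeR, DESeq2 or limma-voom, with 3 lower and 0 higher at an unadjusted p under 0.05, a share close to the 18.1% of all tested genes, and a median of -0.06. The protease subunit Clpp was at -0.48 ± 0.16 (SE, edgeR adjusted p = 0.0773), while the matrix protease Lonp1 was at 0.32 ± 0.15 (SE, edgeR adjusted p = 0.277). The mortalin partners Grpel1 and Dnaja3, an exchange factor and a J-domain protein, were at -0.06 and -0.00 (edgeR adjusted p = 0.887 and 0.996).

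Of 14 tested subunits of the cytosolic CCT chaperonin and of prefoldin, which fold actin and tubulin, 0 were called higher and 1 lower, with a median of -0.13. Over all tested genes 3.41% were called higher and 2.68% lower. An unadjusted p under 0.05 was found for 2 of the 14, 0 higher and 2 lower, against 18.1% of all tested genes. Cct7 fell by 0.59 (SE 0.12, edgeR adjusted p = 0.00474), from 112, 109 and 121 CPM in controls to 74.7, 66.8 and 86.2 CPM in treated hearts, with no overlap. With total counts alone its change was -0.28 and did not pass (edgeR adjusted p = 0.138).

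**Figure D5:**
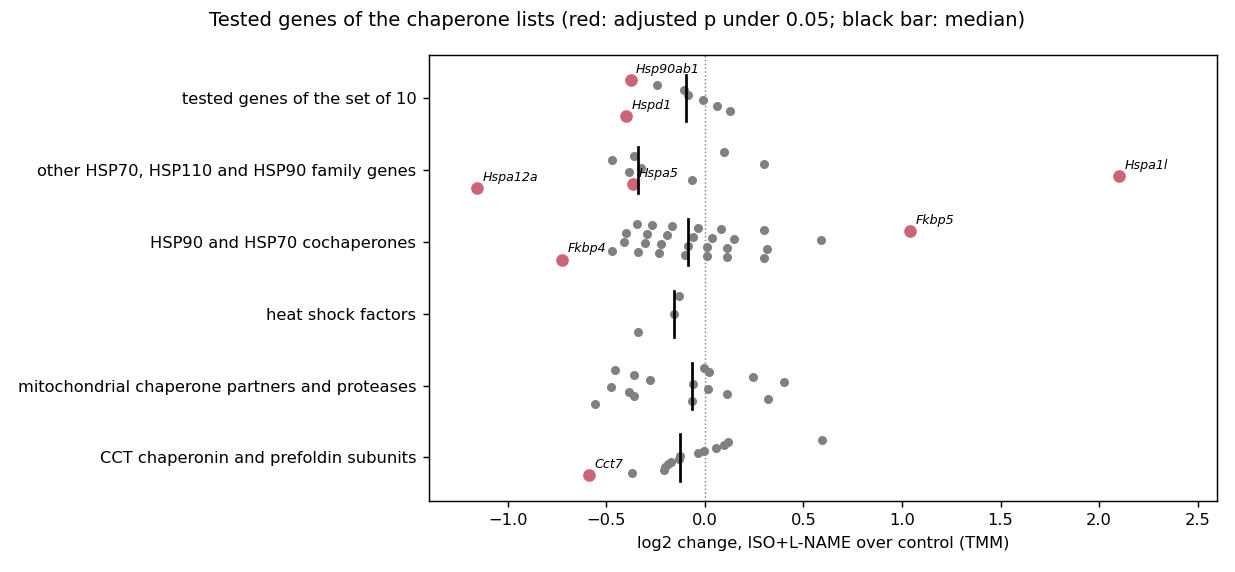
Log2 change, ISO+L-NAME over control, of every tested gene in the chaperone lists; each point is a gene, red points passed edgeR's test and black bars are list medians. The medians lie between -0.34 for the other family genes and -0.06 for the mitochondrial partners, beside -0.01 for all tested genes.

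Marker messages of several cell types differed between the groups, and in bulk RNA fewer cells of a type and less RNA per cell cannot be told apart. The counts of called genes below stand beside 3.41% of all tested genes called higher and 2.68% called lower. The 15 tested cardiomyocyte markers had a median of -0.25 with 2 called higher and 5 lower, and summed to 65353 to 68957 CPM in controls and 57669 to 62525 CPM in treated hearts. The 11 fibroblast markers had a median of 1.20 with 7 called higher and 0 lower (946 to 1351 CPM in controls, 1635 to 2125 CPM in treated hearts), and the 11 macrophage markers one of 1.14 with 6 higher and 0 lower (178 to 229 and 381 to 466 CPM). Of 12 endothelial markers 0 were called by edgeR, DESeq2 or limma-voom (1200 to 1471 and 1261 to 1286 CPM). An unadjusted p under 0.05 was found for 5 of the 12, 1 higher and 4 lower, a larger share than the 18.1% of all tested genes. Of 10 smooth muscle and pericyte markers 1 was called in each direction (529 to 669 and 571 to 645 CPM). Of 11 skeletal muscle markers 1, Acta1, was tested and not called. The sum of the list ran from 148 to 210 CPM in controls and from 41.9 to 416 CPM in treated hearts. Acta1 supplied nearly all of this sum, with 41.2, 140 and 414 CPM in treated hearts. The defining Myh1, Myh2 and Myh4 were at 0 in all libraries. Clock genes differed too, with 7 of 14 called higher, 0 lower and a median of 0.84 (237 to 249 and 377 to 471 CPM). Per2, a repressor in the core clock loop, rose by 2.02 (SE 0.30, edgeR adjusted p = 0.000183). The part of cell make-up and of the clock in the Hspd1 and Hsp90ab1 values was not tested.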

How the data were processed

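RNA of 6 hearts was isolated with Trizol and made into QuantSeq forward libraries, which read the 3′ end of messages, per the labels' protocols. The submitters' processing notes name bcl2fastq and GRCm39. Neither aligner nor counter, nor how strand and molecular identifiers were handled, is given in the sources used here. The deposited table holds whole-number counts for each gene in each library, per the file headers, beside a scaled signal headed CPM. Each deposited signal column equals the counts multiplied by 1 constant per library. The sums run from 789185 to 1060280, so they served only as alternative library sizes. There were 0 columns of per-sample values without a sample.

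The 3 control libraries held 2448484, 2347139 and 2217974 counts, and the 3 treated ones 2637364, 2354157 and 2374361. No libraries of a group agreed within sampling noise (chi-square per degree of freedom 2.10 to 3.42). Genes were filtered with filterByExpr (minimum count 10, total 15) and scaled by TMM, whose factors ran from 0.857 to 1.15. The test was the quasi-likelihood F-test of edgeR 4.0.16 under R 4.3.3 (glmQLFit, glmQLFTest) with group as the only term. P-values were adjusted over 8531 genes by Benjamini-Hochberg at 0.05. Each SE was taken as the size of the log2 change divided by the root of its F value. The test was checked on simulated counts. Shares were compared by exact two-sided permutation tests. The common biological coefficient of variation was 10.8%.

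Other settings tried were DESeq2 1.42.0, limma-voom from limma 3.58.1, RLE scaling, scaling by total counts alone, the robust option, no count filter, a filter at a mean of 5 CPM, mitochondrial genes left out, a replicate block, the deposited library sizes, Hspa1a and Hspa1b summed to 1 gene, which cannot move the other genes, and each library left out. Added after seeing the data was the unfiltered fit of Hspa1a and Hspa1b without ISO+L-NAME 1. The genes and lists were chosen with earlier results of these data known. Named were all 10 genes, up to 4 called genes of each pathway list, 11 further partners chosen by symbol, and the genes whose levels across libraries were most like Hspd1 or the Hspa1 pair. Atf3 and Fos were named after their values were seen. Promoter sequences are from RefSeq (GRCm38.p6). Gene coordinates are the deposited table's own on GRCm39.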

Additional observations from a re-analysis of the deposited data

How the results depend on the processing

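With 3 hearts a group and about 10 counts or fewer for Hspa1a, Hspa1b and Hspa1l in most libraries, depth limits what can be said of the inducible genes, and the 2 called genes lie near the threshold. Over 10 alternatives that kept all libraries, Hspd1 and Hsp90ab1 were called in 9 each, and both calls were lost with total counts alone (-0.092 and -0.076). There 1 of the 10 genes was called higher and 0 lower, their median was 0.21, and Hspa4, Hspa8, Hspa9 and Hsph1 reversed to 0.20, 0.29, 0.22 and 0.063. With no count filter, in a fit with no spread per gene, 1 of the 10 was called higher, Hspa1b. With a library left out the genes called lower numbered 0 to 1 and those called higher 0. The ranges of the log2 change were then -0.46 to -0.38 for Hspd1, -0.45 to -0.29 for Hsp90ab1, -0.033 to 0.29 for Hsp90aa1, -0.10 to 0.27 for Hspe1 and -0.045 to 0.016 for Hspa8, with values of -0.033 and -0.0042 for Hsp90aa1, -0.10 and -0.071 for Hspe1 and 0.016 for Hspa8 where the sign turned. A fit with a library left out has fewer samples. The cause of the lost calls and of the other moves was not tested.

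Over all genes, 291 were higher and 229 lower. These counts were 1407 and 72 with total counts alone, 177 and 140 with DESeq2, and 179 to 272 and 122 to 222 with a library left out, lowest without control 1 for both. Total counts alone called 6 cochaperones, 2 mitochondrial partners, 2 CCT or prefoldin subunits, 8 immediate early genes and 11 clock genes higher, and 0 other family genes and 0 CCT or prefoldin subunits lower. Other family genes called higher numbered 0 with a mean of at least 5 CPM, DESeq2, mitochondrial genes left out and the deposited library sizes (0 to 1 with a library left out), and those called lower 1 with DESeq2 (0 to 2). Cochaperones called higher numbered 0 with the robust fit, DESeq2 and limma-voom (0 to 1). Immediate early genes called higher numbered 8 with no filter, 1 with the robust fit, DESeq2 and limma-voom, and 1 to 7 with a library left out, and those called lower 0 to 1. Clock genes called lower numbered 1 with no filter and 0 to 1 with a library left out. With 3 units in place of 2, 3 of the 6 genes with a promoter window had a match. Hsf2 reversed to 0.17, Bag3 to 0.27, Grpel1 to 0.24 and Dnaja3 to 0.30 with total counts alone. Dnaja3 also reversed to 0.0012 with RLE scaling and 5.4e-05 with DESeq2. Ranges with a library left out reached 0.10 for Bag3, 0.11 for Dnaja3 and 0.033 for Grpel1, with lows of -0.15, -0.11 and -0.20. Bag3 was 0.10 without control 1, Dnaja3 was 0.11 and 0.063 without control 2 and ISO+L-NAME 1, and Grpel1 was 0.033 and 0.024 without control 1 and ISO+L-NAME 1.

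The labels number the replicates 1 to 3 in both groups but do not say that a number is shared. The deviations of same-numbered libraries had correlations of 0.06, -0.03 and -0.01, and not every library correlated best with its own number. These values show no strong effect shared by a number. They cannot tell whether same-numbered hearts were handled together. With the replicate number as a block 319 genes were higher and 241 lower, 0 of the 10 genes were higher and 2 lower, and 6 immediate early genes were higher.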

Other observations

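Among tested genes with a mean of at least 5 CPM, those whose log2 level over the 6 libraries was most like that of Hspd1 were Scgb1c1, Hadhb and Fam43a (Pearson r of 0.997, 0.996 and 0.996). Hadhb encodes the β subunit of the mitochondrial trifunctional protein of fatty acid oxidation. It had 1083, 990 and 893 control counts and 964, 817 and 724 counts after ISO+L-NAME, and fell by 0.62 on the log2 scale (SE 0.10, edgeR adjusted p = 0.000600). For the sum of Hspa1a and Hspa1b they were Csf1, Rusc2 and Gripap1 (r of 0.977, 0.977 and 0.974). Csf1, the growth factor of macrophages, had 29, 19 and 21 control counts and 81, 33 and 45 counts after ISO+L-NAME, highest in ISO+L-NAME 1, and was at 0.81 ± 0.27 (SE, edgeR adjusted p = 0.0808). These are the highest coefficients among all such genes, over 6 points that fall into 2 groups, and they are given as a description.

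Between the chaperone genes themselves, the log2 levels of Hspa9 and Hsph1 had a Pearson r of 0.97 over the 6 libraries, and those of Hsp90aa1 and Hsph1 one of -0.90. These are the highest and the lowest of all the coefficients between pairs of the 10 genes, and they are given as a description.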
